A study of Mus musculus with 9 samples.

Results

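A set of 10 genes of the Hippo pathway and its effectors YAP and TAZ were followed through cultures of RAW264.7, a wild-type mouse macrophage-like cell line derived from a virus-induced tumour. The genes were chosen by name, Stk3, Lats1, Lats2, Amotl1, Ajuba, Yap1, Wwtr1, Tead1, Tead2 and Nuak2, and each of the 10 stood on a line of the deposited table of 53170 named genes. The table gives a read count and an FPKM value (fragments per kilobase of gene, scaled to the size of the library) for polyadenylated RNA. There were 3 groups of 3 libraries: an untreated blank control, cells cultured on a membrane labelled BMC, which the labels do not spell out, and cells on that membrane stimulated with low-intensity pulsed ultrasound (LIPUS), here BMC+LIPUS. All were grown in αMEM with fetal bovine serum. No group had ultrasound without the membrane, the ultrasound dose is not in the labels, and they do not state whether replicates were grown separately. The p-values therefore speak of the spread among these libraries alone, part or all of which may be technical. Libraries held 12675417 to 16574322 counts over named genes.

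In the Hippo cascade the kinases MST1 and MST2 (genes Stk4 and Stk3) activate the kinases LATS1 and LATS2, which phosphorylate the coactivators YAP (Yap1) and TAZ (Wwtr1) and keep them out of the nucleus. Unphosphorylated YAP and TAZ enter the nucleus and act through the TEAD transcription factors on genes such as Ccn1, Ccn2 and Ankrd1. The pathway is known for sensing cell contact, stiffness and tension in adherent epithelial and mesenchymal cells. None of this phosphorylation is read by RNA counts.

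The upper part of the cascade was transcribed and its endpoint was hardly detected. Yap1, Wwtr1 and Tead1 had 0 counts in each of the 9 libraries, and Tead2 had 40 counts in all. Lats1 rose on the membrane, with and without ultrasound, and Lats2 rose with both together, each by less than 1.5-fold. Calls relative to the control were common. They took in 35.9% of all tested genes for the membrane alone and 43.0% with ultrasound added. The Lats2 call was lost in 4 of 17 alternative fits. The Lats1 call for the membrane alone was lost in 2 of 18, both with limma. Of the 6 genes high enough to be tested, 0 were called between BMC+LIPUS and BMC, where 0.108% of all genes tested were.

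Promoter sequence was available from RefSeq (build GRCm38.p6) for 7 of the 10 genes, in windows from 250 bases before to 50 bases after a start site. The submitters' build is GRCm39, so the coordinates below apply to GRCm38.p6 only. The upstream 250 bases are shown for both undetected coactivator genes, for Ajuba, the gene with the most matches to the TEAD motif, and for Lats1, the gene called on the membrane; capitals mark the motif GGAATG on either strand.

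Yap1, chr9:8004597-8004846, minus strand: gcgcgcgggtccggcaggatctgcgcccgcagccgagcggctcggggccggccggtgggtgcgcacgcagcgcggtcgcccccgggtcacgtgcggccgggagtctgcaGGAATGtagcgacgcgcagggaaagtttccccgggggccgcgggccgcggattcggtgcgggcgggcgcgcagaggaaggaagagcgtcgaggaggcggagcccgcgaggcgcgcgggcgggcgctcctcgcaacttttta
Wwtr1, chr3:57575911-57576160, minus strand: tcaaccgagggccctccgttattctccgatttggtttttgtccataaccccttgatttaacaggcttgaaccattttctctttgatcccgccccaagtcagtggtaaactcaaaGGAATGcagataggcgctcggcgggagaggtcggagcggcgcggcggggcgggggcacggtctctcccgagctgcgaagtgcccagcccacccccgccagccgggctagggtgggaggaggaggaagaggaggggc
Ajuba, chr14:54577662-54577911, minus strand: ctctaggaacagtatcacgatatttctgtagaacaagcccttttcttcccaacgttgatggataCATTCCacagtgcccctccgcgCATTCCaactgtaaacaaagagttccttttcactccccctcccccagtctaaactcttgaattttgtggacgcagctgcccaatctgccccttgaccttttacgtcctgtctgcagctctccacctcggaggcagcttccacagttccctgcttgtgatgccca
Lats1, chr10:7680959-7681208, plus strand: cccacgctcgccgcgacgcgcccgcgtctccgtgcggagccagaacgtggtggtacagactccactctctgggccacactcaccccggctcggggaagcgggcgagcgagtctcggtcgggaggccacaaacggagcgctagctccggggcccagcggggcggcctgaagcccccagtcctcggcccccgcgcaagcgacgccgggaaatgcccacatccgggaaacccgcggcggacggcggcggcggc

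The TEAD motif GGAATG was found on either strand in windows of 4 of the 7 genes, which had 9 windows between them. It was in 14.7% of 32851 promoter windows of the same length, a share counted by window and not by gene. The match began 141 bases before the start of Yap1 and 136 bases before the start of Wwtr1, whose window at its other listed start holds the same match. Ajuba had matches 186 and 164 bases before its start, on the opposite strand, where they read CATTCC. In Lats2 the match began 4 bases after the start of one of its listed transcripts. The AP-1 motif TGANTCA and the NF-kB motif GGGANTTTC were in no window of the 7 genes, against 7.81% and 1.11% of all windows, with no overlap between motifs to resolve. The Yap1 window held 49 CpG dinucleotides, more than 99.0% of all windows, and the Lats1 window held 42. The undetected Yap1 and the well-transcribed Lats1 thus both had CpG-dense windows. The other windows held 20 and 19 CpG (Wwtr1), 37 and 4 (Lats2), 21 (Amotl1) and 13 (Ajuba and Tead2 each). The median of all windows was 7. These are matches of letters, and binding was not measured.

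Among the 10 genes, 6 averaged 0.5 FPKM or more and were tested, among 12012 genes in all. A gene was called when its adjusted p in edgeR's quasi-likelihood test was under 0.05. In order of mean level, Lats1 stood at 14.4 FPKM, Nuak2 at 7.68, Stk3 at 6.20, Amotl1 at 6.06, Lats2 at 2.36, Ajuba at 0.540 and Tead2 at 0.0656. The ranges over libraries overlapped between Nuak2 and Stk3 and between Stk3 and Amotl1, and did not overlap between the other neighbours. Lats1 was above 69.2% of tested genes and Ajuba above 1.16%. Ajuba lay just over the filter and Tead2 below it.

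**Figure D1:**
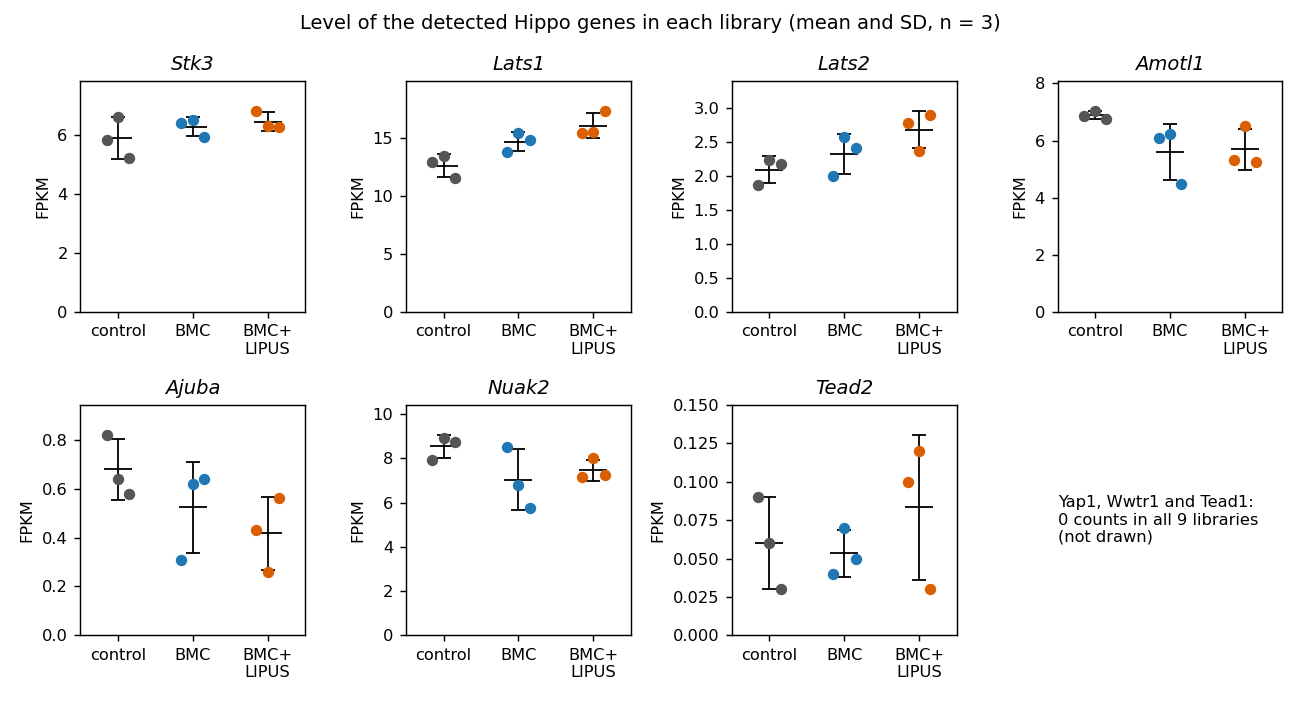
FPKM of the 7 detected genes in each library (points), with the group mean and SD (bars, n = 3), for control, BMC and BMC+LIPUS; each panel has its own axis from 0. The 3 control libraries of Lats1, at 11.5 to 13.4 FPKM, lie below all 6 membrane libraries, while Stk3 and Nuak2 overlap between groups.

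Stk3 encodes MST2, an upstream kinase. Its level was 5.83, 6.61 and 5.20 FPKM in control, 6.39, 6.51 and 5.91 on the membrane, and 6.80, 6.29 and 6.25 with ultrasound as well. The groups overlapped in every comparison. The log2 change was 0.15 in BMC against control (95% interval -0.03 to 0.34) and 0.20 in BMC+LIPUS against control (interval 0.02 to 0.38, edgeR adjusted p = 0.0713), and Stk3 was not called in either. Without control replicate 2, its highest control, the latter became 0.29 and was called (edgeR adjusted p = 0.0195). Its paralog Stk4, which encodes MST1, was at 25.4 ± 2.13, 23.6 ± 0.421 and 23.5 ± 1.21 FPKM (SD, n = 3) in control, BMC and BMC+LIPUS. Per length it was 3.34 to 4.57 times as abundant as Stk3 in every library. Stk4 was not called either (log2 change -0.04 against control in each case, interval -0.18 to 0.09).

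Lats1 encodes the kinase that phosphorylates YAP and TAZ directly. It was at 12.90, 13.44 and 11.50 FPKM in control, against 13.77, 15.42 and 14.84 in BMC, then 15.39, 15.47 and 17.31 in BMC+LIPUS. Each membrane library was above each control library. Group means were 12.6 ± 1.00, 14.7 ± 0.837 and 16.1 ± 1.09 FPKM (SD, n = 3). Lats1 rose 1.22-fold in BMC against control (log2 change 0.28, SE 0.076, edgeR adjusted p = 0.00854) and 1.34-fold in BMC+LIPUS against control (log2 change 0.42, SE 0.076, edgeR adjusted p = 0.000335). These comparisons share the control libraries. The call in BMC against control held in all 9 fits that left out 1 library, with log2 changes of 0.22 to 0.33, but not with limma on log2(FPKM + 1) (log2 change 0.20, adjusted p = 0.0573). In bulk RNA, more cells with the transcript and more transcript per cell cannot be told apart.

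Lats2, the paralog of Lats1 and itself a known YAP target in human cells, was at 1.86, 2.23 and 2.17 FPKM in control, against 2.00, 2.57 and 2.40 in BMC, then 2.77, 2.37 and 2.89 in BMC+LIPUS. The BMC+LIPUS libraries were all above the controls, while BMC overlapped with both other groups. Lats2 rose 1.35-fold in BMC+LIPUS against control (log2 change 0.43, SE 0.13, edgeR adjusted p = 0.0106). In BMC against control it was 0.22 on the log2 scale, with an interval of -0.05 to 0.49, and was not called (edgeR adjusted p = 0.197). The call in BMC+LIPUS against control was lost without control replicate 1 (log2 change 0.36, edgeR adjusted p = 0.0569), without BMC+LIPUS replicate 3 (0.36, edgeR adjusted p = 0.0527) and with limma on log2(FPKM + 1) (0.25, adjusted p = 0.0646). Lats1 was 5.30 to 6.94 times as abundant per length as Lats2 over the 9 libraries.

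Amotl1 encodes an angiomotin-family scaffold that binds YAP at junctions and on actin. Its level was 6.87, 7.03 and 6.77 FPKM in control, against 6.09, 6.23 and 4.48 in BMC, then 5.33, 6.52 and 5.24 in BMC+LIPUS. Every membrane library was below every control, and BMC replicate 3 was the lowest. The adjusted p-values missed the threshold, with a log2 change of -0.23 in BMC against control (interval -0.45 to -0.02, edgeR adjusted p = 0.0892) and -0.21 in BMC+LIPUS against control (interval -0.43 to 0.01, edgeR adjusted p = 0.118). The value in BMC against control was -0.10 without BMC replicate 3, and it was called without BMC replicate 2 (-0.32, edgeR adjusted p = 0.0477). In BMC+LIPUS against control it was called without BMC+LIPUS replicate 2 (-0.30, edgeR adjusted p = 0.0321) and without BMC replicate 3 (-0.21, edgeR adjusted p = 0.0392). Counting other settings of the fit as well, 4 of 18 alternatives called Amotl1 in each of these comparisons. Among the other angiomotins, Amot had 0 counts in all libraries and Amotl2 had 3.

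Ajuba encodes a LIM-domain protein that binds LATS kinases at tension-bearing junctions. It had 43, 39 and 29 counts in control, against 16, 33 and 30 in BMC, then 24, 12 and 28 in BMC+LIPUS. In FPKM these were 0.82, 0.64 and 0.58, then 0.31, 0.62 and 0.64, then 0.43, 0.26 and 0.56. The BMC+LIPUS libraries were below all controls, with a log2 change of -0.63 whose interval ran from -1.32 to 0.07 (edgeR adjusted p = 0.137). In BMC against control the groups overlapped (log2 change -0.32, interval -0.99 to 0.35), and Ajuba was not called in either comparison. Its values rested on single libraries: -0.32 became -0.05 without BMC replicate 1, -0.17 without control replicate 1 and -0.49 without BMC replicate 3, and -0.63 became -0.39 without BMC+LIPUS replicate 2 and -0.90 without BMC+LIPUS replicate 3. Its relative Limd1 was at 22.3 ± 1.37, 22.3 ± 0.747 and 22.6 ± 0.716 FPKM (SD, n = 3) in control, BMC and BMC+LIPUS and was not called, and Wtip, the remaining family member, had 0 counts.

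Yap1 and Wwtr1 encode the coactivators on which the cascade converges. With 0 counts in a group, at most 0.0673 CPM (counts scaled to library size) in control, 0.0723 in BMC and 0.0720 in BMC+LIPUS are allowed, taking 3 counts over the group's total. Over all 9 libraries the limit is 0.0235 CPM. These limits cover counting error only. Of the 53170 named genes, 30291 had 0 counts in all 9 libraries, so a count of 0 was common in the table. The TAZ of this pathway is Wwtr1 and not Tafazzin, an unrelated mitochondrial gene once called Taz.

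The TEAD factors bring YAP and TAZ to DNA. Tead1 had 0 counts in every library, with the same limits as Yap1. Tead2 had 6, 5 and 2 counts in control, against 3, 5 and 3 in BMC, then 7, 7 and 2 in BMC+LIPUS. All its libraries were at 0.03 to 0.12 FPKM, and the groups overlapped. A fit without the filter gave Tead2 a log2 change of 0.46 in BMC+LIPUS against control with an SE of 0.766 (edgeR adjusted p = 0.741). Tead3 had 8 counts in all and Tead4 had 0. No TEAD gene therefore reached the level at which genes were tested.

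Nuak2 encodes an AMPK-related kinase that is a YAP target in human cells. It was at 7.94, 8.93 and 8.75 FPKM in control, against 8.51, 6.80 and 5.78 in BMC, then 7.16, 8.02 and 7.23 in BMC+LIPUS. BMC replicate 1 was at the level of the controls, and the other two BMC libraries were below them. Nuak2 was not called in BMC against control (log2 change -0.22, interval -0.45 to 0.02, edgeR adjusted p = 0.140) or in BMC+LIPUS against control (-0.13, interval -0.36 to 0.11). The value in BMC against control was -0.10 without BMC replicate 3, and -0.37 without BMC replicate 1, when it was called (edgeR adjusted p = 0.00978). The paralog Nuak1 had 4 counts in all 9 libraries.

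**Figure D2:**
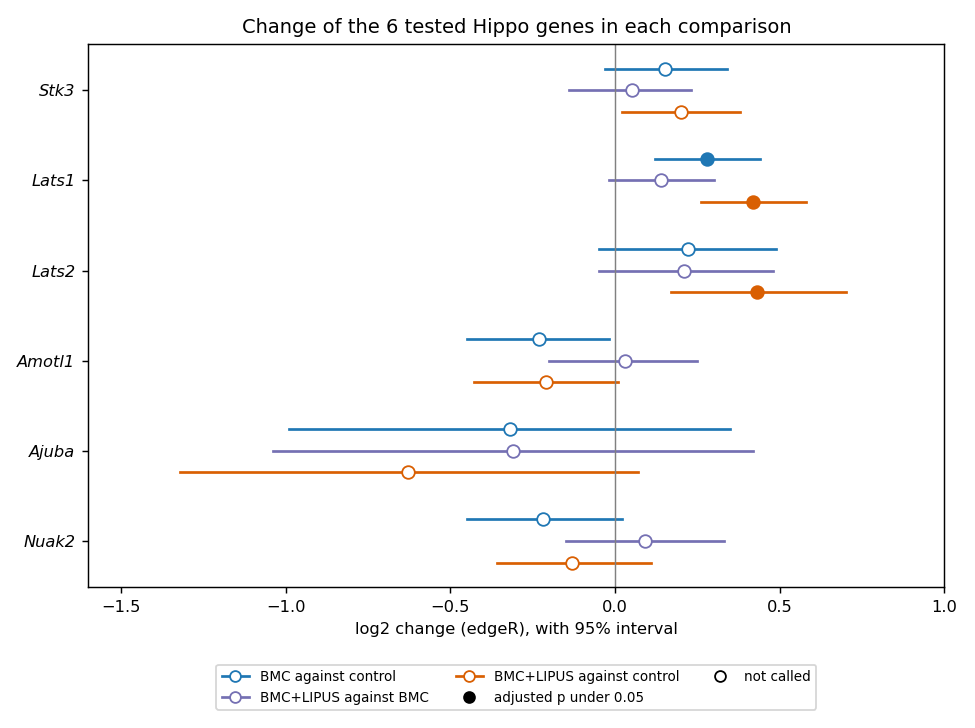
Fitted log2 change (points) and 95% interval (lines) of the 6 tested genes in the 3 comparisons; filled points were called at an edgeR adjusted p under 0.05. Lats1 is called against control with and without ultrasound, Lats2 with ultrasound, and each interval for BMC+LIPUS against BMC spans 0.

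Across the 6 tested genes, 1 was called higher and 0 lower in BMC against control, where 35.9% of the 12012 genes were called, 17.2% higher and 18.8% lower. In BMC+LIPUS against control 2 were called higher and 0 lower, where 43.0% of all genes were called, 21.1% higher and 21.9% lower. With 6 genes tested, neither count stands apart from these shares as a result about the genes. The split of all calls moved with the scaling: 47.8% of the calls in BMC against control were higher, but 34.6% with library totals in place of TMM factors, and 49.0% and 36.8% in BMC+LIPUS against control. The median log2 change of the 6 genes was -0.04 and 0.04 in these comparisons, against 0.01 for all genes in each. The groups did not overlap for 2 of the 6 in BMC against control (Lats1 and Amotl1), where 46.5% of genes did not overlap. In BMC+LIPUS against control they did not overlap for 4 (Lats1, Lats2, Amotl1 and Ajuba), where 50.9% did not.

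The comparison of BMC+LIPUS with BMC asked what ultrasound adds on the membrane. Of the 6 genes 0 were called, where 0.108% of all genes were, 0.0916% higher and 0.0167% lower. At an unadjusted p under 0.05 there were also 0 of the 6 with edgeR, DESeq2 and limma, where edgeR gave 11.5% of all genes, a share at which 0 of 6 says little about these genes. Lats1 had a log2 change of 0.14 (interval -0.02 to 0.30) and Lats2 of 0.21 (interval -0.05 to 0.48). Stk3 was at 0.05 (interval -0.14 to 0.23), Amotl1 at 0.03 (interval -0.20 to 0.25), Nuak2 at 0.09 (interval -0.15 to 0.33) and Ajuba at -0.31 (interval -1.04 to 0.42). The groups overlapped for all 6, where 15.8% of all genes did not overlap.

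Among the other genes of the pathway, most kinases and regulators were tested and most targets were not. Of all 53170 named genes, 12012 were tested and 30291 had 0 counts in every library. Of 20 other kinases and adaptors of the cascade, 17 were tested and 1, Tnik, had 0 counts. In BMC against control 5 of the 17 rose and 3 fell, with a median log2 change of -0.03, and in BMC+LIPUS against control 7 rose and 3 fell, with a median of 0.09. Over all genes 17.2% rose and 18.8% fell in the first comparison, and 21.1% and 21.9% in the second. Stk38l (NDR2), a kinase related to LATS, went from 6.46 ± 1.09 FPKM in control to 15.4 ± 6.28 in BMC and 19.8 ± 5.04 in BMC+LIPUS (SD, n = 3), a rise of 2.49-fold (edgeR adjusted p = 0.000607) and 3.23-fold (edgeR adjusted p = 4.33e-05). Nf2, which encodes the activator Merlin, went from 40.3 ± 3.11 FPKM in control to 51.2 ± 6.75 in BMC and 57.6 ± 3.15 in BMC+LIPUS (SD, n = 3). Its log2 change was 0.41 in BMC against control (edgeR adjusted p = 0.00224) and 0.59 in BMC+LIPUS against control (edgeR adjusted p = 8.04e-05). Sav1, the scaffold of MST kinases, rose by 0.44 (edgeR adjusted p = 0.00538) and 0.59 (edgeR adjusted p = 0.000406) in the same comparisons. The kinases Mink1 and Map4k2, both able to activate LATS, were 1.39-fold and 1.82-fold lower in BMC (edgeR adjusted p = 6.20e-05 and 0.00142), and Stk38 (NDR1) was 1.22-fold lower. In BMC+LIPUS against control Mink1, Map4k2 and Stk38 were 1.42-fold, 1.89-fold and 1.24-fold lower (edgeR adjusted p = 2.26e-05, 0.000651 and 0.000424). On the log2(FPKM + 1) scale the change of the low-level Map4k2 in BMC against control was -0.48 in place of -0.87.

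Of 20 other regulators of YAP and TAZ, 15 were tested and 3 (Amot, Wtip and Fat4) had 0 counts. In BMC against control 6 rose and 2 fell, with a median log2 change of 0.11, and in BMC+LIPUS against control 7 rose and 1 fell, with a median of 0.24, beside the same shares over all genes (17.2% and 18.8%, then 21.1% and 21.9%). The excess of rises in BMC did not hold under other scalings: with library totals in place of TMM factors 3 rose and 4 fell, and with limma on log2(FPKM + 1) 2 rose and 2 fell. Library totals gave 6 rises and 3 falls in BMC+LIPUS against control. Fbxw11, part of the ubiquitin ligase that targets YAP, rose 1.30-fold and 1.35-fold (edgeR adjusted p = 0.000112 and 1.85e-05). Mob4, a component of the phosphatase complex that restrains MST kinases, rose 1.29-fold in BMC and 1.26-fold in BMC+LIPUS against control. Strn3 and Csnk1d rose 1.23-fold and 1.24-fold in BMC+LIPUS against control. In BMC they rose 1.13-fold and 1.11-fold, calls kept in only 6 and 7 of 18 alternatives. Csnk1e was 1.23-fold lower in BMC (edgeR adjusted p = 0.00834), a call lost without BMC replicate 2 (adjusted p = 0.0560). It was 1.24-fold lower in BMC+LIPUS against control (edgeR adjusted p = 0.0051), a call kept in 18 of 18 alternatives. The 8 calls in BMC against control were 4 without BMC replicate 2 and 5 each without control replicate 1, control replicate 2 or BMC replicate 3.

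**Figure D3:**
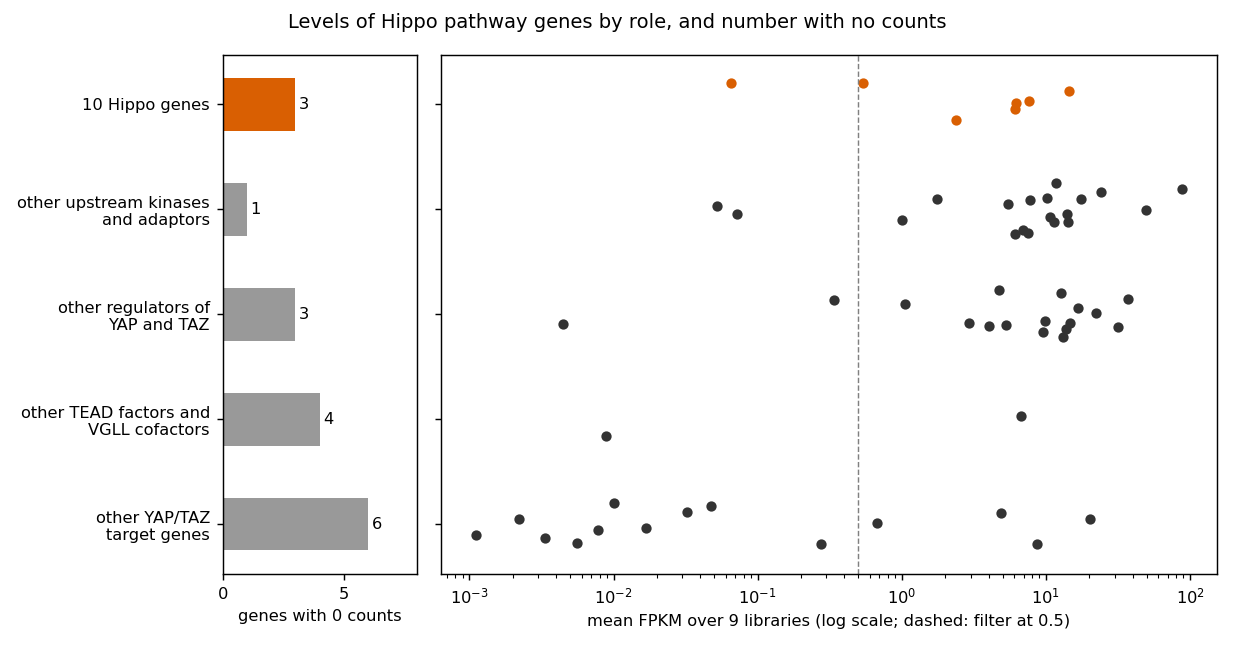
Mean FPKM over the 9 libraries of the genes with at least 1 count (right, log scale, 1 point a gene, dashed line at the filter of 0.5 FPKM) and number of genes with 0 counts (left) for the 10 Hippo genes and the 4 other lists. Most kinases and regulators lie above the filter, and most target genes lie below it.

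Beyond the TEAD genes, the VGLL cofactors compete with YAP for TEAD. Of these Vgll1, Vgll2 and Vgll3 had 0 counts and Vgll4 was at 6.99 ± 0.178, 6.30 ± 0.725 and 6.88 ± 0.568 FPKM (SD, n = 3), not called in any comparison. The 20 other target genes came from a signature of YAP and TAZ activity built in human cancer cells, and 6 had 0 counts: Ccn1, Ccn2, Ankrd1, Foxf2, Rbms3 and Igfbp3. Only 4 were tested. Of these, 3 fell and 0 rose in BMC against control, with a median log2 change of -0.37, and the same 3 fell in BMC+LIPUS against control, with a median of -0.48, where 18.8% and 21.9% of all genes fell. Lats2 and Nuak2 belong to the same signature and are not among these 4: Lats2 was called higher in BMC+LIPUS against control, and Nuak2 was not called. Myof, a membrane repair protein, went from 24.4 ± 1.39 to 18.8 ± 0.798 and 17.5 ± 1.31 FPKM (SD, n = 3), or 1.25-fold and 1.33-fold lower (edgeR adjusted p = 0.00150 and 0.000118). Asap1, a GTPase-activating protein at focal adhesions, was 1.34-fold and 1.47-fold lower, and Dock5, an exchange factor for Rac, was 1.37-fold and 1.28-fold lower. The remaining one, Gadd45a, was not called, at -0.28 and -0.91 on the log2 scale; against control the latter passed the threshold with library totals (-0.98, edgeR adjusted p = 0.0463), without control replicate 1 (-1.15, edgeR adjusted p = 0.0249) or without BMC+LIPUS replicate 1 (-1.19, edgeR adjusted p = 0.0487). In BMC+LIPUS against BMC, edgeR called 0 of the 17 kinases, 15 regulators, 1 VGLL gene and 4 targets, and 0, 2, 0 and 0 of them had an unadjusted p under 0.05. Over all genes 11.5% had an unadjusted p under 0.05, so the 2 regulators are near that share. DESeq2, which called 77 of all genes, called 0 in each list, and limma on log2(FPKM + 1) called 0 of all genes and so could call none here.

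**Figure D4:**
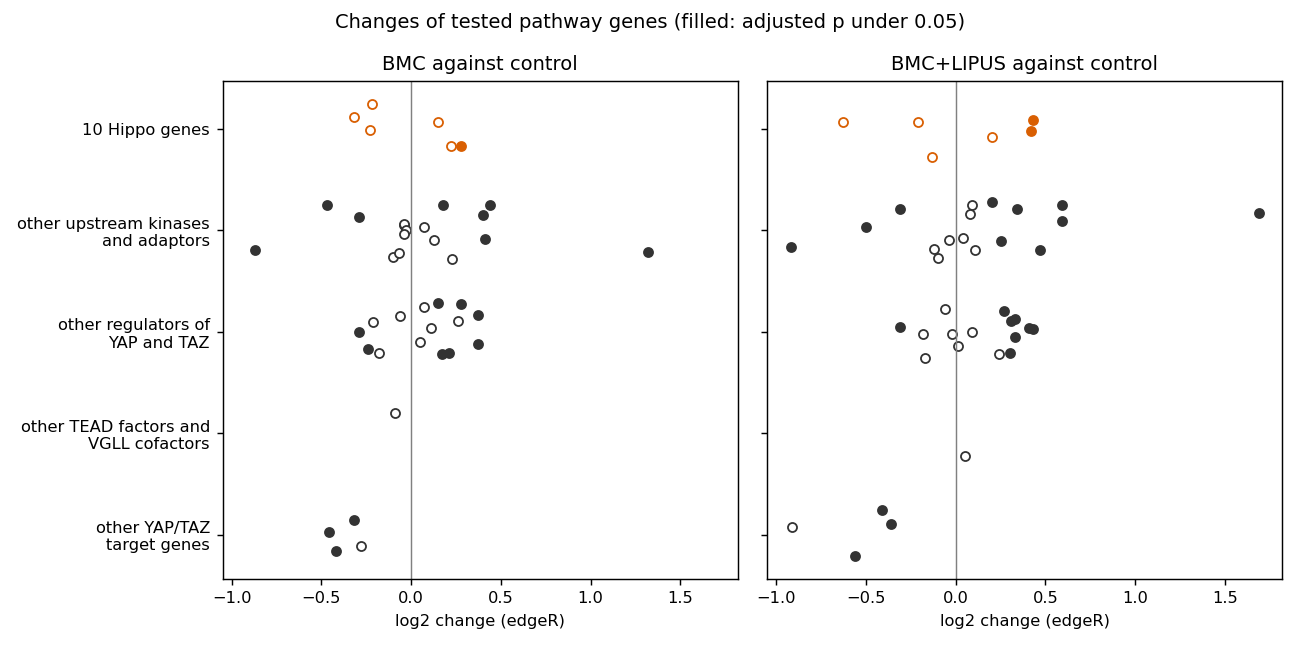
Fitted log2 change of each tested gene (points, filled where the edgeR adjusted p is under 0.05) for the 10 Hippo genes, of which 6 were tested, and the 4 other lists, in BMC and in BMC+LIPUS against the same controls. Called kinases lie on both sides of 0, and the 3 called targets lie below it.

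Over the 9 libraries, the tested gene whose log2 CPM was most like that of Lats1 was Alkbh8, with a Pearson r of 0.993, followed by Son at 0.987. For Lats2 it was Spred2 (0.964), for Amotl1 Zfp61 (0.978), for Nuak2 Akr1c12 (0.969), for Stk3 Dnajb13 (0.950) and for Ajuba Fut11 (0.928). These are the highest of 12012 genes over 9 libraries that share the 3 groups, and are given as a description.

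The libraries carried macrophage transcripts and few of other cell types. Of 10 macrophage markers 9 were tested, with Csf1r at a mean of 365, 360 and 380 FPKM in control, BMC and BMC+LIPUS (log2 change against control 0.04 and 0.13, SE 0.0526 each, not called), while Mertk was below the filter. Of the 9, 3 rose and 2 fell in BMC against control, where 17.2% of all genes rose and 18.8% fell. In BMC+LIPUS against control 2 rose and 2 fell, where 21.1% of all genes rose and 21.9% fell. Cd14 rose 1.73-fold and Spi1 1.27-fold in BMC, Lyz2 rose 1.12-fold, and Ptprc and Cd68 were 1.20-fold and 1.16-fold lower. Of 10 fibroblast and stromal markers, 6 had 0 counts, and their summed level was 0.64 to 0.75 FPKM in control, 1.06 to 1.58 in BMC and 1.34 to 1.62 in BMC+LIPUS. Most of that was Pdgfrb, which rose 2.06-fold in BMC; Col1a2, Col3a1, Pdgfra, Lum and Dcn had 0 counts in all libraries. Of 9 epithelial markers 8 had 0 counts, and the 9 endothelial markers, 4 of them at 0 counts, summed to 0.63 to 0.81 FPKM in control, 0.65 to 0.88 in BMC and 1.02 to 1.11 in BMC+LIPUS. Eng, the 1 of these tested, was 1.60-fold higher in BMC+LIPUS against control (edgeR adjusted p = 0.0263), a call lost with DESeq2 and limma and without control replicate 2, control replicate 3 or BMC+LIPUS replicate 1. Whether these markers have a part in the changes above was not tested.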

How the data were processed

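Polyadenylated RNA of RAW264.7 cells was sequenced as read pairs in 9 libraries. The submitters' processing notes list HTSeq 0.6.1, HISAT2 2.0.1, cutadapt 1.9.1 and DESeq2, with the build GRCm39. What annotation, filters and strand setting were used is not given in the sources used here, so reads of overlapping or antisense genes cannot be told apart. The authors deposited raw whole-number counts per gene, and beside them FPKM values to 2 decimals, which are scaled by gene length and library size. Of 56691 lines, 2639 name no gene (0.0889% to 0.0976% of counts) and were left out; of 77 names on several lines the line with the highest mean count was kept. The table's 6 columns of 3 other libraries were not used.

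Genes averaging 0.5 FPKM or more were tested with edgeR 4.0.16 (TMM, glmQLFit, glmQLFTest) in 1 fit of 3 group means over 9 libraries, with Benjamini-Hochberg adjustment over 12012 genes. SEs were derived from F, and intervals are at 95%. The fit was checked on simulated counts. Alternatives used DESeq2 1.42.0, limma 3.58.1 on log2(FPKM + 1) and log2(FPKM + 0.1), other filters, library totals, robust estimation, 6 libraries, a replicate block and each library left out. The genes, lists and tests were chosen with earlier results of these data known. All 10 genes are reported. In each comparison with control, other lists give up to 4 called genes with the smallest p, and paralogs of the 10; a few more are named as not called or at 0 counts, after their values were seen. A gene that this rule names is not reported here. Likeness is the highest Pearson r of log2 CPM, leaving out predicted names.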

Additional observations from a re-analysis of the deposited data

How the results depend on the processing

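The 6 tested genes were refitted under 18 alternatives in each comparison, 17 for Lats2 and Ajuba, which a minimum of 5 FPKM left out. Of these 318 values, 299 kept both direction and side of the threshold, 6 lost a call, 10 gained one and 3 changed sign. In BMC against control, 1 gene was called. There were 2 calls with library totals, with no filter and with the replicate block, 0 with limma at either pseudocount (1 or 0.1), and 1 to 2 when a library was left out. Over all 12012 genes 4318 were called, 4221 with library totals, 4496 with the block, and 3879 and 3815 with limma. No filter gave 4429 of 22879, and fits that left out a library 3474 to 4521. In BMC+LIPUS against control, 2 were called. There was 1 call with limma at either pseudocount and with a minimum of 5 FPKM, and 1 to 3 when a library was left out. Over all genes 5160 were called in this comparison, 4774 and 4738 with limma, and 3582 of 7231 with a minimum of 5 FPKM. Fits that left out a library called 4304 to 5200. Amotl1 was called there in 4 of 18 alternatives, of which 2 left out a library. In BMC+LIPUS against BMC, 0 were called under each alternative run. The sign changes were all in that comparison, none of them called: Amotl1 went from 0.03 to -0.10 without BMC replicate 3 and to -0.07 without BMC+LIPUS replicate 2, and Nuak2 from 0.09 to -0.02 without BMC replicate 3. Over all fits that left out a library they ran from -0.10 to 0.11 for Amotl1 and from -0.02 to 0.24 for Nuak2. The cause was not tested.

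The 8 regulators called in BMC against control were 4 with limma and 5 with a minimum of 5 FPKM, where 11 were tested. Over all genes limma on log2(FPKM + 1) called 3879 of 12012 and the minimum of 5 FPKM 2974 of 7231. With no filter 1 kinase, Stk38l, was called in BMC+LIPUS against BMC, where it was 0. Over all genes that comparison gave 13 calls, and 0 to 236 under the alternatives. Libraries with the same number in their titles did not all deviate together. The r of their deviations from group means, across genes, ran from -0.0608 to 0.21 over the 9 pairs. It was not over 0.1 in each, and not every library correlated best with its own number. In the submitters' own library names, control and membrane libraries of the same title number carry different numbers. Matched by those names, r was 0.103 for control 2 with BMC 1 and -0.0438 for control 3 with BMC 2. It was 0.00532 for control 2 with BMC+LIPUS 1 and -0.0295 for control 3 with BMC+LIPUS 2. No fit used those names as a block. The replicate block added Amotl1 to the calls in BMC against control and gave 51 calls over all genes in BMC+LIPUS against BMC. Ajuba had 12 to 43 counts a library, Tead2 2 to 7, and Yap1, Wwtr1 and Tead1 0, and at these depths small changes were not detectable.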
